A study of Mus musculus with 6 samples.

Results

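The 2′-5′ oligoadenylate synthetase genes of the mouse, Oas1a to Oas1h with Oas2 and Oas3, were followed in fully grown oocytes with and without a truncating mutation of Bnc1, which encodes the zinc finger protein basonuclin 1. Members were the 10 genes of that name, taken by gene symbol, and 9 of them were among the 17577 genes of the tables, while Oas1b was not among the symbols and was not analysed here. Germinal vesicle (GV) oocytes were collected from antral follicles of 12-week-old C57BL/6 J mice after injection of pregnant mare serum gonadotropin, and polyadenylated RNA was amplified by a modified Smart-seq2 procedure. By the study's methods, each cDNA starts from a single oocyte. There were 3 libraries from Bnc1tr/tr mice, homozygous for a frameshift deletion carried throughout the animal, and 3 from wild-type (WT) littermates. The labels do not say that libraries of a group came from separate animals, so the p-values measure the spread between these libraries, which may be partly technical.

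Oligoadenylate synthetases sense double-stranded RNA. When they bind it, the active enzymes join ATP into short 2′-5′-linked oligoadenylates, and these act as a second messenger of the antiviral response. In most cells the genes are induced by interferon. The mouse Oas1 gene has been copied many times side by side, and the copies have diverged: Oas1a and Oas1g encode active synthetases, whereas Oas1d is known as an ovary-expressed copy whose protein lacks synthetase activity, and Oas1b is the flavivirus resistance gene, which is cut short in common laboratory strains.

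The 10 genes lie in 1 cluster on chromosome 5 (RefSeq, GRCm38.p6). In order of coordinate these are Oas2 at chr5:120730333-120749886, Oas3 at chr5:120753098-120777684, Oas1e at chr5:120786312-120795530, Oas1c at chr5:120800194-120812540, Oas1b at chr5:120812635-120824163, Oas1f at chr5:120847367-120857986, Oas1h at chr5:120861422-120873506, Oas1g at chr5:120876142-120887613, Oas1a at chr5:120896256-120907544 and Oas1d at chr5:120914818-120921648. Oas1b, Oas1f, Oas1h and Oas1d are on the plus strand and the other 6 on the minus strand. Oas1c and Oas1b start close together and point away from each other.

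How far the copies have diverged matters for what their levels mean, since reads from a shared stretch can be assigned to either copy. The same stretch of coding sequence from 7 copies is given here from the GENCODE M21 transcripts (GRCm38), 60 bases long after gap-free alignment. Capitals mark a base that differs from the most common base at that position among the 7 copies, and 39 of the 60 positions varied. The stretch was chosen as the one with the most varying positions, so it overstates the divergence. Over the whole alignment, 469 of 1061 gap-free positions varied.
Oas1a: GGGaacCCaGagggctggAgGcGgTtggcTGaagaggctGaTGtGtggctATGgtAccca
Oas1g: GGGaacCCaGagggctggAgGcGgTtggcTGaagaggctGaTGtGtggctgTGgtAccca
Oas1c: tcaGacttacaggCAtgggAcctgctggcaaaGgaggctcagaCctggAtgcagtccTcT
Oas1d: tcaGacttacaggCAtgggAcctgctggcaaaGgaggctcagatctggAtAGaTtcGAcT
Oas1e: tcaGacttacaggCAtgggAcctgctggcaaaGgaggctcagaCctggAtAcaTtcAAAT
Oas1f: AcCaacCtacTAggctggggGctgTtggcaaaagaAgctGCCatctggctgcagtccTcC
Oas1h: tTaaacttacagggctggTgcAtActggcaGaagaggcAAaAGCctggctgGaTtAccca
Oas1a and Oas1g were nearly the same here, Oas1c, Oas1d and Oas1e formed a second set, and Oas1h stood apart from both. Over the whole coding sequence, Oas1a and Oas1g were 96.7% identical and Oas1d and Oas1e 90.1%. Oas1h was at most 78.8% identical to any other Oas1 copy with an intact reading frame. Oas1c was as close to Oas1f (84.9%) as to Oas1d (84.6%) and Oas1e (84.1%), which the stretch does not show.

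The share of a transcript's 31-base words that recurs in other members gives the scope for misassigned reads. It was 68.8% in Oas1a and 65.4% in Oas1g, nearly all shared between these 2 genes, so their separate levels are uncertain. Among the other copies it was 28.2% in Oas1e, 22.2% in Oas1c, 21.8% in Oas1d, 11.0% in Oas1f and 6.93% in Oas1h, and Oas2 and Oas3 shared no such word with another member. The antisense gene Gm43069 overlaps 227 exon bases of Oas1c, 9.44% of them, and reads on those bases cannot be divided between the 2 genes without strand.

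Promoter windows of 6 members were in the RefSeq table (GRCm38.p6), from 250 bases before to 50 bases after the start. The sites shown are those matching the interferon-stimulated response element, spelled as GAAA, any 2 bases and GAAA again, on either strand, with the match or overlapping matches in capitals.
Oas1a, chr5:120907523-120907552, minus strand: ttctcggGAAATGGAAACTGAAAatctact
Oas1g, chr5:120887609-120887638, minus strand: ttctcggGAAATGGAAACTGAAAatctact
Oas1c, chr5:120812606-120812635, minus strand: atgggacTTTCAGTTTCCATTTCccgggaa
Oas3, chr5:120777715-120777744, minus strand: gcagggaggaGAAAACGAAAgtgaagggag
Oas1a, Oas1g and Oas1c each held 2 overlapping matches and Oas3 held 1, and the Oas1c matches read on the opposite strand. The Oas1c matches lay 114 and 108 bases before the start used for the Oas1c window, which is inside the gene span given above. They also lie just before the first base of Oas1b, chr5:120812635, and read on the strand of Oas1b. Which of these genes the site serves was not tested. Such a match was found in 3.44% of all 32851 promoter windows. The windows of Oas1f and Oas1h held no match to these letters, and the stretch just upstream of each start is given with its E-box matches, CANNTG, in capitals.
Oas1f, chr5:120847277-120847366, plus strand: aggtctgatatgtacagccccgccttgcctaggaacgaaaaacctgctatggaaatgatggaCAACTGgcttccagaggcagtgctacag
Oas1h, chr5:120861331-120861420, plus strand: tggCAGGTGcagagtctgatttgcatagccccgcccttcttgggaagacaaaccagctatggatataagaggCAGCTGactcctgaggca
An E-box, the kind of site bound by the oocyte factor FIGLA and many other proteins, occurred in 72.3% of all promoter windows. A further match of Oas1f, 99 bases before its start, lies outside the stretch shown, and the windows of Oas1a, Oas1c, Oas1g and Oas3 held none. No window of the 6 held TATAAA, present in 13.6% of all windows, or the NOBOX-type letters TAATTG, present in 8%.

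To check the genotype labels, Bnc1 was read first. Its level was 9.04, 6.51 and 5.83 FPKM, a gene's fragments scaled by transcript length and by the mapped total of the library, in Bnc1tr/tr replicates 1 to 3 and 13.2, 12.5 and 16.2 FPKM in the WT replicates. Every Bnc1tr/tr library was below every WT library, with a log2 fold change of -0.89 (limma, adjusted p = 0.0090), although a frameshift need not lower the transcript. Oocyte markers such as Zp3 and Gdf9 were abundant in all 6 libraries, with a summed level of the 12 markers of 8551 to 9923 FPKM in Bnc1tr/tr and 7239 to 11501 FPKM in WT. Of these, Dazl was called higher (log2 difference 0.84), and Zp2 and Nlrp5 lower (-0.74 and -0.62; limma adjusted p = 0.0035, 0.032 and 0.026). Of the 8 immune markers, 4 passed the filter used below and 0 were called, but their sum was 34.4 and 62.9 FPKM in Bnc1tr/tr replicates 1 and 2 against 1.89 FPKM in replicate 3 and 1.39 to 3 FPKM in WT. Lyz2, Tyrobp and Cd74 were above 0 in those 2 libraries and listed at 0 in the other 4, as were Hba-a1 and Hbb-bs. Cd3e, at 0.31, 0.24 and 0.67 FPKM, and Adgre1, at 0.09, 0.09 and 0.13 FPKM, were highest in Bnc1tr/tr replicate 3. Both were listed at 0 in WT, so replicate 3 was not free of immune markers. The summed granulosa and cumulus markers were 40.2 to 58.6 FPKM in Bnc1tr/tr and 21.6 to 38.9 FPKM in WT, theca and stroma markers 5.97 to 8.53 against 1.73 to 2.27 FPKM, and endothelial markers 3.75 to 6.67 against 7.77 to 10.1 FPKM. Cyp19a1, Dcn and Pecam1 in turn made up most of these sums, and markers within a list disagreed. Among granulosa markers, Inha, Hsd17b1 and Fst were lower on average and Cyp19a1, Inhba and Nr5a2 higher. The endothelial marker Kdr was higher, at 1.54, 0.64 and 0.53 FPKM in Bnc1tr/tr against 0.1, 0.12 and 0.07 FPKM in WT. In each of these 3 lists 1 gene was called, of 4, 1 and 1 tested, beside 31.8% of all tested genes. Fshr and Dcn were higher and Pecam1 lower (log2 differences 2.24, 1.44 and -1.02, with limma adjusted p = 0.00011, 0.00051 and 0.0048). Fshr, at 0.31, 0.74 and 0 FPKM in WT, passed the filter through Bnc1tr/tr alone. The part of these marker differences in the Oas levels was not tested. The libraries held an estimated 12.5 to 21.6 M fragments, with WT replicate 3 the least certain. For a 1 kb transcript, 3 fragments then equalled 0.139 to 0.240 FPKM.

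In WT oocytes, 4 copies were among the most abundant transcripts of the cell. Oas1e reached 1861, 1696 and 1189 FPKM in WT replicates 1 to 3 and ranked 34, 43 and 84 among all listed genes. Oas1h reached 1173, 1292 and 996 FPKM, Oas1d 1136, 929 and 571 FPKM, and Oas1c 716, 610 and 405 FPKM. The order of the means was Oas1e, Oas1h, Oas1d and Oas1c, but each of these overlapped its neighbour in range, and WT replicate 3 was the lowest of the 3 for every one of them.

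Below these came a step. Oas1f stood at 44.6, 45.7 and 41.0 FPKM in WT, ranked 2228 to 2352, and did not overlap Oas1c above it or Oas1g beneath it. Oas1g, an active synthetase gene, had 1.30, 1.93 and 1.06 FPKM. The remaining synthetase genes were below 1 FPKM in every WT library: Oas3 at 0.51, 0.63 and 0.28, Oas1a at 0.37, 0.81 and 0.19, and Oas2 at 0, 0.02 and 0 FPKM. Oas1a and Oas3 were above the level of 3 fragments in all 6 libraries, Oas3 barely so in Bnc1tr/tr replicate 3, at 0.05 FPKM.

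**Figure D1:**
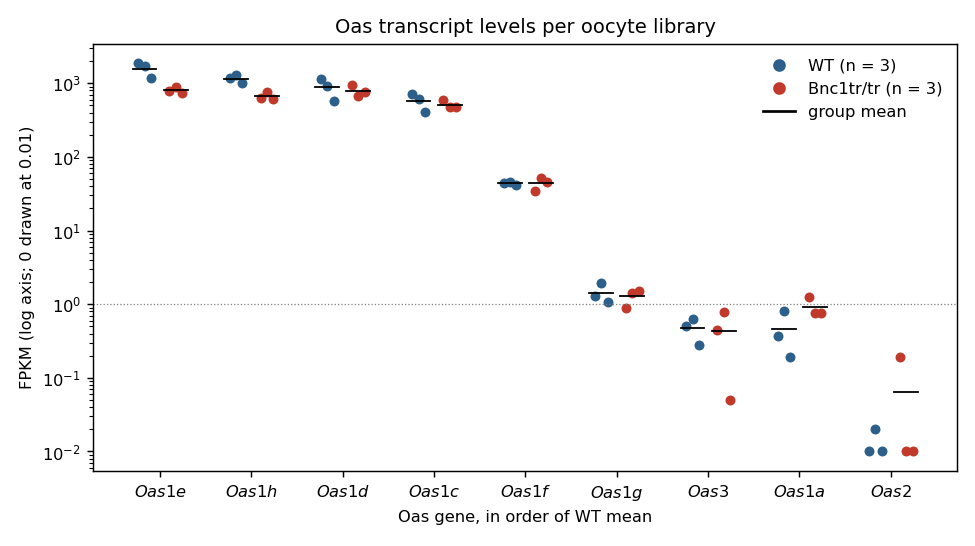
FPKM of each listed Oas gene in each library on a log axis, with WT in blue, Bnc1tr/tr in red, black bars for the group means, and values of 0 drawn at 0.01. Oas1e, Oas1h, Oas1d and Oas1c lie between 405 and 1861 FPKM in every library, Oas1f between 34.8 and 51.4, and the other 4 genes at or under 1.93.

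The abundant copies did not lie together in the cluster. They occupied 3 places, with Oas1e beside Oas1c, Oas1h between the lower Oas1f and Oas1g, and Oas1d at the far end beyond Oas1a, and they were found on both strands. Oas1d and Oas1e, the most alike of the abundant copies, were also at different ends of the Oas1 array.

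**Figure D2:**
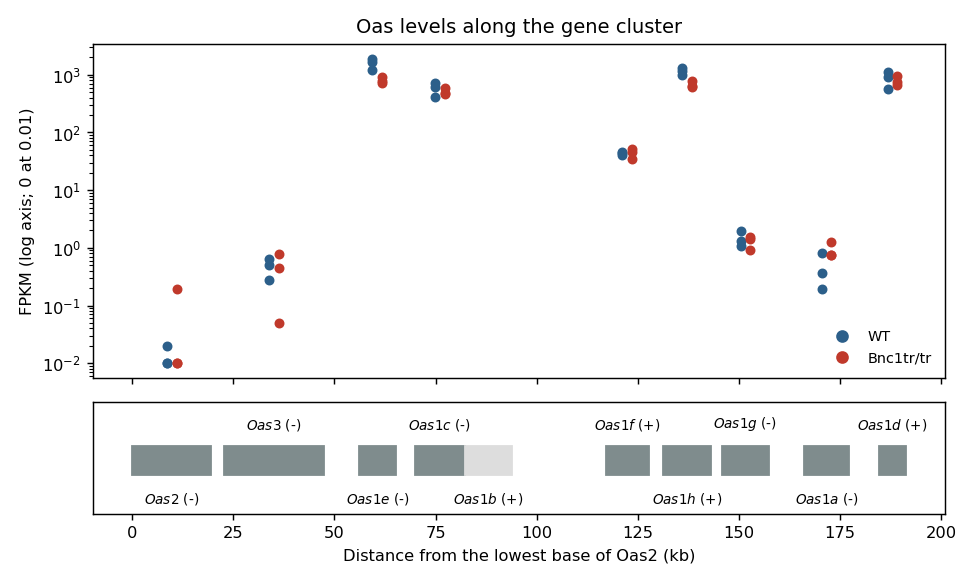
Upper panel, FPKM (log axis, 0 drawn at 0.01) of each Oas gene in WT (blue) and Bnc1tr/tr (red) libraries, placed at the gene's middle; lower panel, extent and strand of each gene in kb from the lowest base of Oas2, with Oas1b in light grey because it has no value. Oas1e and Oas1c are neighbours, and lower copies separate them from Oas1h and Oas1h from Oas1d.

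To find which members differed between genotypes, the genes averaging 1 FPKM or more were fitted with limma, and a gene was called at an adjusted p under 0.05 with an absolute log2 fold change over 0.5. Of the 9 listed members, 6 passed this filter, and 2 of them, Oas1e and Oas1h, were called lower in Bnc1tr/tr, with 0 called higher. Over all 10560 genes tested, 31.8% were called, 7.68% lower and 24.1% higher. Among the 1288 genes averaging 100 FPKM or more, the range in which Oas1e, Oas1h, Oas1d and Oas1c fall, 9.39% were called lower and 9.47% higher. Across the tested genes the median log2 fold change was 0.15 as deposited, 0.024 with upper-quartile scaling, -0.015 with median-ratio scaling and -0.10 with quantile normalization. The whole-table split of 2547 higher and 811 lower calls became 2145 and 1231, 2034 and 1395, and 1637 and 1877 under the same scalings.

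Oas1e fell the most. It stood at 773, 902 and 730 FPKM in Bnc1tr/tr replicates 1 to 3, and all 3 were under the lowest WT library at 1189 FPKM. Of all tested genes, 46.8% had groups that did not overlap, and 14.1% did so with Bnc1tr/tr lower. The group means were 802 ± 89.7 and 1582 ± 350 FPKM (SD, n = 3 each), a ratio of 0.507. On the log2(FPKM + 1) scale the difference was -0.96 (SE 0.21, 95% interval -1.43 to -0.49, limma adjusted p = 0.0078), or -1.11 once the median of the tested genes was subtracted. In rank, Oas1e went from 34 to 84 in WT to 117 to 149 in Bnc1tr/tr.

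Oas1h, the most diverged of these copies, fell as well. Its Bnc1tr/tr libraries held 638, 765 and 619 FPKM, all below the WT minimum of 996 FPKM. Means were 674 ± 79.6 and 1154 ± 149 FPKM (SD, n = 3 each), a ratio of 0.584. The log2 difference was -0.77 (SE 0.18, 95% interval -1.17 to -0.37, limma adjusted p = 0.010), or -0.92 relative to the median. Without WT replicate 2 the call was lost (-0.69, limma adjusted p = 0.053).

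Both differences held their direction in all 15 alternatives fitted, and the 3 scalings gave -1.10, -1.15 and -0.93 for Oas1e and -0.91, -0.96 and -0.67 for Oas1h. The filter, the replicate block and the trend with robust variances change only the p-value, so their direction was fixed in advance. Since Bnc1tr/tr replicates 1 and 2 carried most of the immune and all of the haemoglobin marker transcripts, both genes were also fitted with Bnc1tr/tr replicate 3 alone against the 3 WT libraries. The log2 differences were then -1.09 for Oas1e and -0.89 for Oas1h, as large as with all libraries, while the limma adjusted p was 0.11 for both, with the lone library assumed to vary like the WT ones. These are single-oocyte libraries in FPKM, so a lower level cannot be told apart from a larger amount of other RNA in the same cell.

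Oas1d and Oas1c were not called. Oas1d was 945, 662 and 761 FPKM in Bnc1tr/tr, a range that lay within that of WT, and its log2 difference was -0.11 (95% interval -0.72 to 0.49, limma adjusted p = 0.78). Oas1c was 584, 474 and 471 FPKM, also within the WT range, with a log2 difference of -0.15 (95% interval -0.67 to 0.38, limma adjusted p = 0.67). These intervals leave room for a fall of up to 0.72 and 0.67 on the log2 scale, and the difference between these genes and Oas1e was examined through ratios.

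Oas1f and Oas1g had nearly equal group means. Oas1f was 34.8, 51.4 and 45.3 FPKM in Bnc1tr/tr, and the mean was 43.8 FPKM in both groups (log2 difference -0.015, 95% interval -0.44 to 0.41, limma adjusted p = 0.96). Oas1g was 0.90, 1.44 and 1.53 FPKM in Bnc1tr/tr, overlapping WT, with a log2 difference of -0.081 (limma adjusted p = 0.79) that became -0.60 under quantile normalization (limma adjusted p = 0.054). Under the filter, Oas1a was 1.27, 0.75 and 0.75 FPKM in Bnc1tr/tr, and only WT replicate 2 at 0.81 reached this range. Fitted without the filter, Oas1a had a log2 difference of 0.41 (limma adjusted p = 0.20). Oas3 was 0.45, 0.79 and 0.05 FPKM, and Oas2 was 0.19 FPKM in Bnc1tr/tr replicate 1 and listed at 0 in the other two, with limma adjusted p of 0.86 and 0.65 without the filter.

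**Figure D3:**
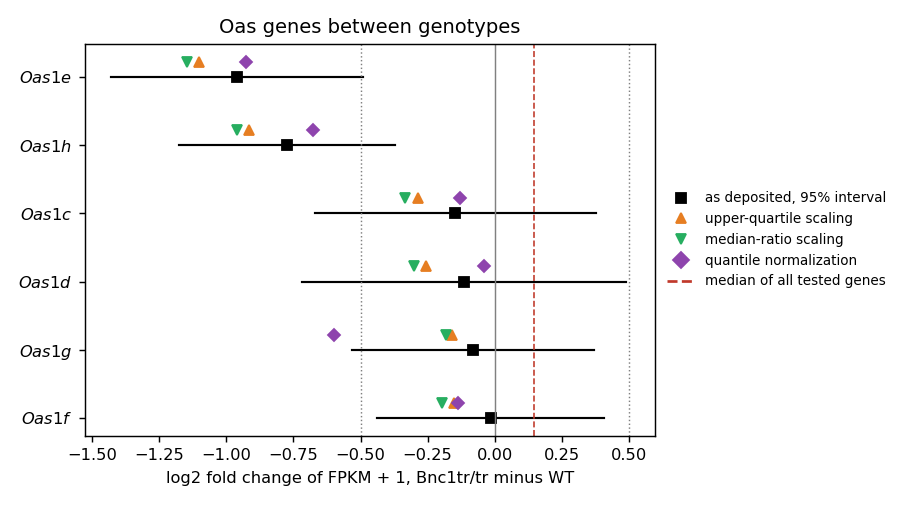
Log2 fold change (Bnc1tr/tr minus WT, of FPKM + 1) of the 6 members averaging 1 FPKM or more, with squares and bars for the limma estimate and its 95% interval and coloured marks for 3 other scalings; dotted lines are the fold threshold and the dashed line the median over every tested gene. The intervals of Oas1e (-1.43 to -0.49) and Oas1h (-1.17 to -0.37) lie below 0 and those of the other 4 include it.

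The total over the 9 listed members was 2978, 2857 and 2628 FPKM in Bnc1tr/tr and 4934, 4576 and 3203 FPKM in WT, so that the Oas genes took 0.382 to 0.453% of all FPKM in mutant oocytes and 0.442 to 0.734% in WT. The sums in FPKM did not overlap, as in the 14.1% of single tested genes that were lower in every Bnc1tr/tr library. The percentages did overlap, at 0.453% in Bnc1tr/tr replicate 1 and 0.442% in WT replicate 3. In summed FPKM, WT replicate 3 was nearer to the mutant libraries than to the other WT libraries. The mean sum was 2821 ± 178 FPKM against 4238 ± 913 FPKM (SD, n = 3 each), a ratio of 0.666.

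Shares and ratios within a library do not move with library scaling, so they show how the make-up of the group differed. Oas1e made up 25.96, 31.6 and 27.8% of the summed Oas FPKM in Bnc1tr/tr and 37.7, 37.1 and 37.1% in WT. In WT this share was steady, at 37.3 ± 0.367% (SD, n = 3), although the Oas1e level itself varied from 1189 to 1861 FPKM. Oas1d took 31.7, 23.2 and 28.9% in Bnc1tr/tr and 23.0, 20.3 and 17.8% in WT, and Oas1c 19.6, 16.6 and 17.9% against 14.5, 13.3 and 12.6%. For these 3 genes the groups did not overlap, whereas the Oas1h share, 21.4 to 26.8% against 23.8 to 31.1%, overlapped. The small share of Oas1a also did not overlap, and groups did not overlap in 46.8% of single tested genes. Shares of a library add up to the whole, so a lower Oas1e share raises the shares of the other copies. Neither Oas1d nor Oas1c was called higher in level. In Bnc1tr/tr replicates 1 and 3, Oas1d and not Oas1e was the most abundant copy.

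Of the 10 ratios between the 5 copies averaging 10 FPKM or more, 5 did not overlap between groups, beside 46.8% of single tested genes, and the ratios share genes and are not independent. The Oas1e to Oas1c ratio was 1.32, 1.91 and 1.55 in Bnc1tr/tr and 2.60, 2.78 and 2.94 in WT. The Oas1e to Oas1d ratio was 0.818, 1.36 and 0.960 against 1.64, 1.83 and 2.08, and the Oas1e to Oas1f ratio was 16.1 to 22.2 against 29.0 to 41.7. Oas1h against Oas1c and against Oas1f also separated the groups, the first narrowly, at 1.09, 1.62 and 1.31 in Bnc1tr/tr and 1.64, 2.12 and 2.46 in WT. The exact two-sided permutation p was 0.10 for each of these 5 ratios, the smallest that 3 against 3 libraries allow, and 0.20 after Benjamini-Hochberg adjustment over the 10 ratios, so none passed a threshold of 0.05.

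The other 5 ratios overlapped. Oas1d against Oas1c was 1.62, 1.40 and 1.62 in Bnc1tr/tr and 1.59, 1.52 and 1.41 in WT (exact two-sided permutation p = 0.60). Oas1e against Oas1h was 1.21, 1.18 and 1.18 in Bnc1tr/tr and 1.59, 1.31 and 1.19 in WT (exact two-sided permutation p = 0.20). Thus Oas1e and Oas1h were lower against Oas1c and Oas1f in every mutant library, and the Oas1d to Oas1c ratio was 1.40 to 1.62 in all 6.

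**Figure D4:**
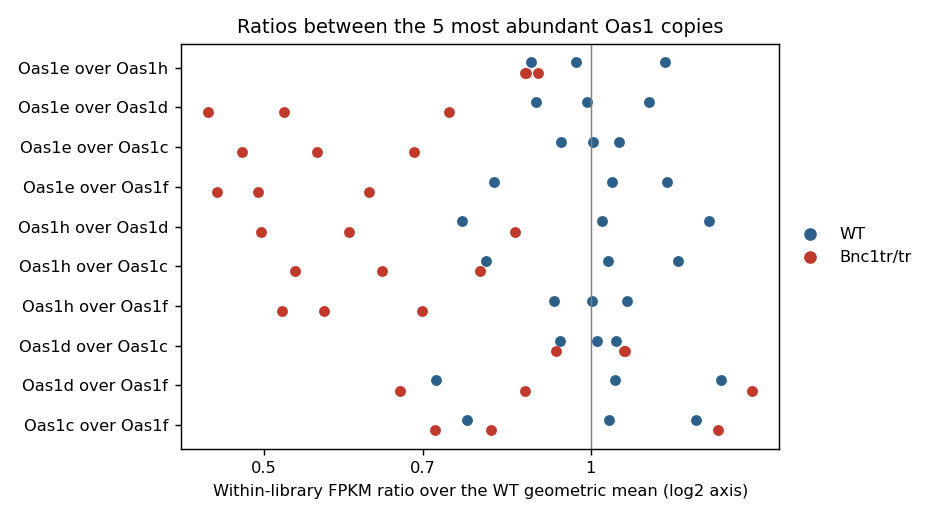
Ratio of FPKM between pairs of the 5 most abundant Oas1 copies in each library, divided by the geometric mean of the 3 WT ratios (log2 axis), WT in blue and Bnc1tr/tr in red. The groups are apart for Oas1e over Oas1d, Oas1c and Oas1f and for Oas1h over Oas1c and Oas1f, and overlap for the other 5 pairs.

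The genes flanking the cluster were read for comparison with its members. Of the 3 nearest listed protein-coding genes on each side, Rasal1, which encodes a Ras GTPase-activating protein, was higher in Bnc1tr/tr, at 7.68, 7.27 and 6.29 FPKM against 2.67, 1.57 and 1.21 FPKM (log2 difference 1.55, limma adjusted p = 0.00072). On the other side, Rph3a, Ptpn11 and the ribosomal protein gene Rpl6 were not called, with log2 differences of -0.020, -0.022 and -0.24 (limma adjusted p = 0.95, 0.95 and 0.27). For Rpl6 every Bnc1tr/tr library was still below every WT library, as in 14.1% of all tested genes. Ddx54 and Dtx1 were below 1 FPKM on average, with every Bnc1tr/tr library above every WT library. Without the filter their log2 differences were 0.51 and 0.40 (limma adjusted p = 0.043 and 0.12). No tested neighbour was called lower, the direction of Oas1e and Oas1h. Beside the 7.68% of all tested genes called lower, so few neighbours cannot show a difference from the whole table.

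The genes that act on or beside the oligoadenylates were read next. Of the 7 genes listed for this oligoadenylate arm, 4 passed the filter and 1 was called higher (25.0%, near the 24.1% of all tested genes), Pde12, a phosphodiesterase that degrades 2′-5′ oligoadenylates. Pde12 was 7.41, 4.86 and 6.57 FPKM in Bnc1tr/tr and 3.04, 2.96 and 3.70 FPKM in WT (log2 difference 0.77, limma adjusted p = 0.014), and its call was lost under quantile normalization (0.39, limma adjusted p = 0.14), without Bnc1tr/tr replicate 1 and without WT replicate 2. Akap7, whose protein can also degrade oligoadenylates, was 26.9 to 30.6 FPKM in Bnc1tr/tr and 24.9 to 32.0 FPKM in WT (limma adjusted p = 0.90).

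Abce1, which encodes a ribosome recycling factor, was 6.99, 4.19 and 5.09 FPKM in Bnc1tr/tr and 4.23, 4.95 and 1.71 FPKM in WT (log2 difference 0.53, limma adjusted p = 0.22). The synthetase-like gene Oasl1 was 3.72, 4.17 and 4.49 FPKM against 5.19, 4.54 and 4.40 FPKM (log2 difference -0.16, limma adjusted p = 0.49), and it was called lower under quantile normalization (-0.54, limma adjusted p = 0.033). Oasl2 was listed at 0 in all 3 Bnc1tr/tr libraries and at 0.52, 0.13 and 0.03 FPKM in WT. Elac1, a nuclease of tRNA processing, stayed at or under 0.39 FPKM in all 6. The arm's median log2 difference was 0.25, beside 0.15 for all tested genes.

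Interferon-stimulated genes other than Oas were read as a list of their own. Of 31 such genes in the tables, 18 passed the filter, 10 of them were higher (55.6%, beside 24.1% of all tested genes) and 1, Samhd1, was lower (5.56% beside 7.68%), with a median log2 difference of 0.70. Rtp4, a chaperone gene, was 10.7, 8.98 and 7.70 FPKM in Bnc1tr/tr and listed at 0 in all 3 WT libraries (limma adjusted p = 3.1e-06). The guanylate-binding protein gene Gbp3 was 2.53, 5.36 and 7.18 FPKM against 0, 0.18 and 0.39 FPKM (log2 difference 2.27), and Xaf1, linked to cell death, 11.9, 12.5 and 12.4 FPKM against 1.83, 1.42 and 3.81 FPKM (log2 difference 2.05; limma adjusted p = 0.00054 and 0.00036). The filter takes the mean of all 6 libraries, so genes such as Rtp4 and Gbp3 passed it through Bnc1tr/tr alone. Another 13 listed genes were below it, which raises the share called. Without the filter, 10 of the 31 were higher, beside 2734 of all 17574 genes. With Bnc1tr/tr replicate 3 alone against WT, a fit in which this library has no spread of its own, 5 of the list were called higher and 0 lower, beside 7.1% higher and 1.41% lower of all genes tested in that fit.

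Sensors of foreign RNA and DNA went both ways. Of the 11 tested, 4 were higher and 4 lower (36.4% each, beside 24.1% and 7.68% of all tested genes), with a median log2 difference of -0.011. The split was 2 higher and 5 lower with median-ratio scaling and 2 higher and 4 lower with quantile normalization. Irf7, a transcription factor of the interferon response, was 7.07, 6.55 and 4.01 FPKM against 0.09, 0 and 0.18 FPKM (log2 difference 2.63, limma adjusted p = 3.5e-05). Dhx58, an RNA helicase of the RIG-I family, was 6.88, 6.45 and 3.77 FPKM against 0, 0.25 and 0.40 FPKM (log2 difference 2.44, limma adjusted p = 9.0e-05). Tlr3, a receptor for double-stranded RNA, was lower, at 0.37, 0.42 and 0.41 FPKM against 1.78, 2.18 and 2.60 FPKM (log2 difference -1.18, limma adjusted p = 0.00078). Irf7 and Dhx58 passed the filter through Bnc1tr/tr alone and Tlr3 through WT alone. Without the filter, 5 of the 21 listed sensors were higher and 4 lower, beside 2734 higher and 673 lower of all 17574 genes. The number called fell from 8 to 5 without Bnc1tr/tr replicate 1, without Bnc1tr/tr replicate 3 or without WT replicate 2. Whole-table calls fell as well, from 2547 higher and 811 lower to 1867 and 523, 2057 and 535, and 1974 and 416 in turn.

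Of 11 interferon signalling genes tested, 3 were higher (27.3%, near the 24.1% of all tested genes) and 0 lower, with a median log2 difference of 0.40. Ptpn6, a phosphatase that restrains cytokine signalling, was 44.6, 29.6 and 28.8 FPKM against 8.72, 8.32 and 7.38 FPKM (log2 difference 1.92, limma adjusted p = 0.00016). Socs1, a feedback inhibitor of interferon signalling, was 19.7, 11.5 and 9.57 FPKM against 8.98, 4.57 and 3.13 FPKM (log2 difference 1.19, limma adjusted p = 0.030), and it passed in 7 of 15 alternatives. The count of 3 fell to 1 without WT replicate 2, where whole-table calls fell to 1974 higher and 416 lower. The immune marker sum was highest in Bnc1tr/tr replicates 1 and 2, and the part of immune transcripts in the levels of these lists was not tested.

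**Figure D5:**
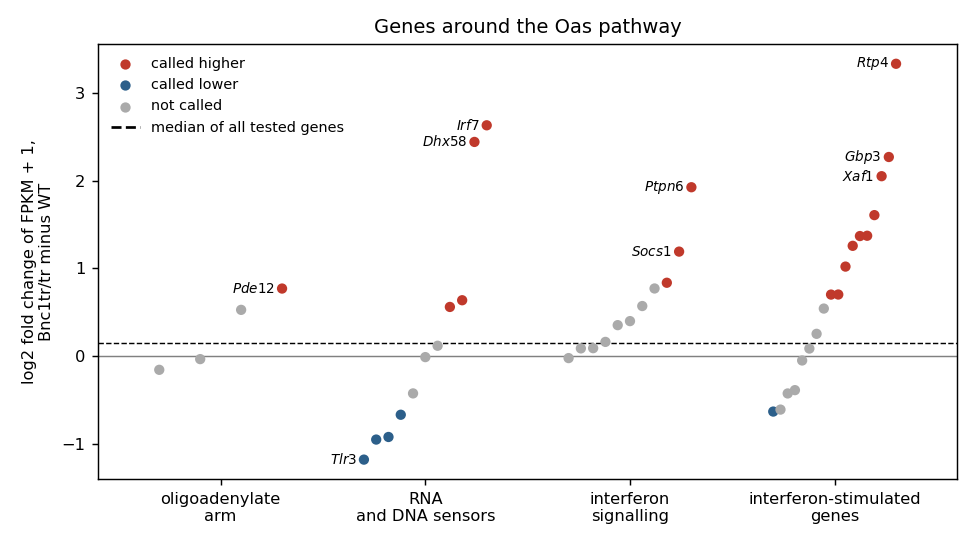
Log2 fold change (Bnc1tr/tr minus WT, of FPKM + 1) of every gene averaging 1 FPKM or more in 4 lists around the Oas pathway, red for called higher, blue for called lower and grey for not called, with the dashed line at the median over every tested gene. Of the 11 called interferon-stimulated genes 10 lie above the line, the point of Rtp4 depends on the added 1 because its WT libraries are listed at 0, and the sensors spread from -1.18 (Tlr3) to 2.63 (Irf7).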

How the data were processed

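Tables of 3 Bnc1tr/tr and 3 WT GV oocyte libraries were used. The authors deposited gene-level FPKM values with 2 decimals per library, with no counts or library totals. The submitters' processing notes name HISAT2 2.0.4, Bowtie2 2.2.5, RSEM 1.2.12 and GRCm38.p6, without saying what each did, and how reads shared by gene copies were divided is not given in the sources used here. FPKM is relative to all fragments, so a few abundant transcripts move the rest, and amplified cDNA carries no molecular identifiers, so floors cover counting error only.

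Groups were fitted by limma 3.58.1 (R 4.3.3), without covariates, to log2(FPKM + 1) of the 10560 genes averaging 1 FPKM or more. Adjusted p are Benjamini-Hochberg values over all of these. Fold changes on this scale understate those of low genes. In simulated data for this comparison over 10560 genes, the fit found 174 of 200 changed genes and made 10 false calls. How often it finds differences of the size seen in Oas1e and Oas1h, or differences in low genes, was not tested. Depth was inferred from the spacing of low FPKM values and entered no test. There were 25 symbols altered by a spreadsheet, which were restored through the NCBI Gene ID.

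Coding sequences (GENCODE M21) were aligned with MAFFT 7.526, in place of the protein alignment planned, and promoters came from RefSeq. Members, lists and tests were chosen with earlier results of these data known, and the gene lists were written from general knowledge. Named genes were all members, Bnc1, the oligoadenylate arm, the 3 called genes with the largest absolute log2 fold change of each other list, 3 neighbours on each side, and the 3 genes with the profile nearest to that of Oas1e. Of these, 2 genes are not reported here. Samhd1 and the marker genes were named after their values were seen. Alternatives were the pseudocount, the filter, 3 scalings, the replicate block, limma with trend and robust variances, the fold threshold and leaving out each replicate. Figures were drawn with matplotlib 3.10.9.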

Additional observations from a re-analysis of the deposited data

How the results depend on the processing

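The calls of Oas1e and Oas1h as lower held in 14 and 13 of 15 alternatives, with limma adjusted p of 0.0018 to 0.11 and 0.0031 to 0.11. At an absolute log2 fold change over 1, 0 members were called lower. Without Bnc1tr/tr replicates 1 and 2, an alternative chosen after seeing the data, 0 members were called lower, and the counts were 0 for the oligoadenylate arm, 2 for sensors, 1 for interferon signalling and 5 for interferon-stimulated genes, with 1 library against 3. There Oas1f and Oas1g had log2 differences of 0.050 and 0.074, against -0.015 and -0.081 with all libraries. Interferon signalling calls were 1 under quantile normalization. The cause of these shifts was not tested, and the fit without Bnc1tr/tr replicates 1 and 2 also had fewer libraries.

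Leaving out each library in turn gave 1 to 2 members called lower, 0 called higher, 0 to 1 called genes in the oligoadenylate arm, 5 to 9 sensors, 1 to 4 interferon signalling genes and 8 to 11 interferon-stimulated genes. These fits called 1867 to 2560 genes higher and 416 to 1037 lower over the whole table, of 10378 to 10638 tested. The log2 difference of the summed Oas FPKM was -0.75 to -0.44. Single members ranged from -1.15 to -0.83 (Oas1e), -0.87 to -0.69 (Oas1h), -0.40 to 0.10 (Oas1d), -0.38 to 0.029 (Oas1c), -0.14 to 0.14 (Oas1f) and -0.19 to 0.062 (Oas1g). Among other genes, Akap7 ranged from -0.14 to 0.036, Rph3a from -0.12 to 0.093 and Ptpn11 from -0.18 to 0.12.

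The labels number the replicates 1 to 3 in both groups. Same-numbered libraries had correlations of their deviations of 0.28, -0.034 and 0.12, so the numbers were not taken as pairs. With a replicate block in the fit, interferon signalling calls rose from 3 to 5, the whole table had 2781 higher and 952 lower calls, and the same 2 members were called. Levels under about 0.2 FPKM rest on a few fragments.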

Other observations

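The genes whose profile over the 6 libraries lay nearest to that of Oas1e, by the root mean square difference of log2(FPKM + 1), were Gm13084, Gm10436 and Gm2042, at distances of 0.22, 0.32 and 0.39. Gm13084 was 706, 977 and 897 FPKM in Bnc1tr/tr and 1510, 1408 and 1240 FPKM in WT (log2 difference -0.70, limma adjusted p = 0.019). Gm10436 was 877, 921 and 768 FPKM against 1216, 1288 and 1358 FPKM (log2 difference -0.59, limma adjusted p = 0.021). Gm2042 was 919, 900 and 812 FPKM against 1142, 1132 and 1116 FPKM (log2 difference -0.37, limma adjusted p = 0.099). In all 3 genes every Bnc1tr/tr library was below every WT library, as in Oas1e, and these levels are set by likeness to Oas1e over the same 6 libraries, so they are a description. The calls of Gm13084 and Gm10436 held in 11 of 15 alternatives each.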
